A study of Mus musculus with 4 samples.

Results

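The 7 genes GABRA2, GABRA3, GABRA6, GABRB1, GABRB2, GABRG1 and GABRD (array spelling; Gabra2 to Gabrd in mouse nomenclature) encode subunits of the GABA-A receptor. The set was taken as every probe of the bead array that carries one of these symbols as its target name, whatever its signal. This gave 12 probes of 6 genes among 45281 probes of 30854 symbols. No probe carried the symbol Gabra2, so that gene was not analysed here. Of the 12 probes, 8 were bright enough to be tested, and each of the 6 genes kept at least 1 of them. RNA came from dissected lobes of the cerebellum of untreated Swiss mice at postnatal day 7, with 2 anterior and 2 posterior samples and 1 array for each, and no transgene or mutant allele was involved. The labels do not say whether the replicates came from separate animals, litters or pools, so the p-values measure only the spread between these samples, which may be technical. The comparison asks which genes differ between the posterior and the anterior lobes at an age when granule neurons are still being formed.

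GABA-A receptors are chloride channels opened by the inhibitory transmitter GABA, and each channel is a ring of subunits drawn from several classes. Alpha and beta subunits form the GABA binding site, a gamma subunit is typical of receptors held at synapses, and the delta subunit replaces gamma in receptors outside synapses that respond to ambient GABA. In the cerebellum the alpha6 and delta subunits are hallmarks of maturing granule neurons, whereas alpha2, alpha3 and gamma1 are better known from immature neurons, interneurons or glia. GABA-A receptors of young neurons can depolarize the cell, because the chloride gradient changes as neurons mature.

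Each probe is a short DNA sequence carried by many beads, and its signal is the mean brightness of those beads. The signals below are the deposited intensities of each array, in arbitrary units, and the differences are posterior minus anterior on the log2 scale after quantile normalization, a step that gives all arrays the same distribution of signals. A probe was tested where its detection p-value, which counts how often control probes without a target reach its brightness, was under 0.05 on at least 2 of the 4 arrays, which 21726 probes met. The median intensity ranged from 110.2 to 129.6 over the 4 arrays. Transthyretin (Ttr), the defining gene of the choroid plexus, had intensities of 599.9 and 9501.9 on the anterior arrays and 325.9 and 3777.6 on the posterior ones, so both replicate 2 samples stood apart from both replicate 1 samples, anterior replicate 2 the most. The anterior replicates also differed more from each other (SD of their log2 difference 0.32 over the tested probes) than the posterior replicates (0.20). The number of arrays limits the precision, and an exact permutation test of 2 against 2 arrays cannot go below p = 0.33, so every call leans on the variance that limma borrows from the whole set of probes.

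The delta subunit was the only 1 of the 6 genes with a probe past a criterion of more than 1.2-fold in either direction and p under 0.05 before adjustment, with the p taken from limma. The methods state these thresholds and name an equal-variance t-test for comparisons between groups in general. With the methods' t-test 0 of 8 probes passed, against 3.41% of all tested probes. After Benjamini-Hochberg adjustment of that test 0 of all 21726 tested probes passed, so it could not set the subunits apart. Gabrd was lower in the posterior lobe on both of its probes, by 0.32 and 0.36 on the log2 scale. The beta2 subunit was the highest in the posterior lobe relative to the anterior lobe, by 0.27, and did not pass. The alpha3, alpha6, beta1 and gamma1 subunits differed by 0.17 or less in either direction and did not pass. In numbers of probes, 1 of 8 passed the criterion, against a background of 8.29% of all tested probes in either direction, 5% lower and 3.3% higher in the posterior lobe. No probe of the 8 passed an adjusted p of 0.05 in limma (Benjamini-Hochberg over all tested probes), where the background was 0.106%, and 1 of 8 had an unadjusted p under 0.05, against 10.1%. The posterior arrays both lay below the anterior arrays on 3 of the 8 probes and both above on 1, against backgrounds of 21.5% and 21.1%, so 4 of 8 did not overlap where 42.6% of all tested probes did not. These shares lay close to the background. Taking the brightest probe of each gene, 4 subunits were lower and 2 higher in the posterior lobe with a median difference of -0.093, beside a median of 0.0079 over the 15615 genes tested.

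Gabrd encodes the delta subunit of the extrasynaptic receptors. Probe ILMN_2865082 had intensities of 2121.7 and 2123.8 in the anterior lobe and 1552.6 and 1727.9 in the posterior lobe. Probe ILMN_2698299 had 1983.9 and 2330.9 in the anterior lobe and 1650.6 and 1770.8 in the posterior lobe. On both probes the anterior arrays lay above both posterior arrays, without overlap. After normalization the first was 1.28-fold higher in the anterior lobe (log2 difference -0.36, SE 0.107, 95% interval -0.62 to -0.097, unadjusted p = 0.0154 and adjusted p = 0.383 in limma), and it ranked 872 of 21726 tested probes by p. The second was 1.24-fold higher in the anterior lobe, with an interval that reached past 0 (-0.32, SE 0.152, interval -0.69 to 0.057, adjusted p = 0.551 in limma). Both probes thus gave nearly the same size, their differences being 0.044 apart, but they were hybridized with the same RNA and do not replicate the samples. In dissected tissue, fewer cells of a type and less RNA per cell cannot be told apart.

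The difference in Gabrd depended on which arrays were used. Settings that changed only the filter, the replicate block or the test could not move the difference. Both probes stayed lower in the posterior lobe under each normalization, without normalization and without each array in turn. Their values moved little with the normalization, from -0.33 to -0.30 for ILMN_2698299 and from -0.37 to -0.34 for ILMN_2865082. Without anterior replicate 2, the array with the high Ttr signal, they were -0.096 and -0.25, and the criterion was met by neither. Without anterior replicate 1 they were -0.54 and -0.47, both past an adjusted p of 0.05 (0.00416 and 0.0106 in limma), in a fit where 12% of all tested probes passed it. Without posterior replicate 1 or 2, ILMN_2865082 was at -0.32 and -0.40, on either side of its -0.36 with all 4 arrays. It missed the criterion in both fits, where a single posterior array was left. It also missed the criterion with the methods' t-test on all 4 arrays (unadjusted p = 0.091, adjusted p = 0.65). Over the limma settings that kept all 4 arrays, the adjusted p of ILMN_2865082 ranged from 0.0993 to 0.672. That of ILMN_2698299 ranged from 0.212 to 0.841. In the fits that left out an array, the lone array of a lobe shows no spread of its own. It is assumed to vary like the arrays of the other lobe. A pass or a miss in such a fit therefore cannot be read as specific to Gabrd.

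**Figure D1:**
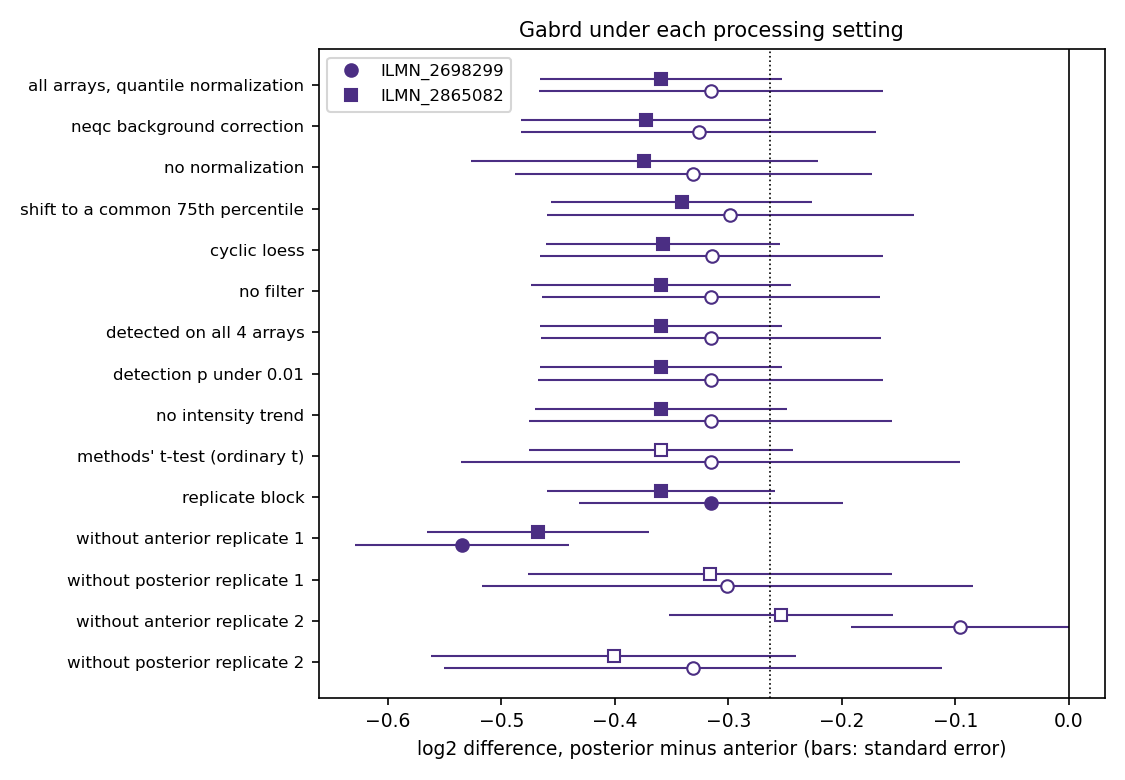
Log2 difference, posterior minus anterior, of both Gabrd probes (squares ILMN_2865082, circles ILMN_2698299) in each processing setting, with the standard error as a bar. Filled symbols passed the 1.2-fold criterion, the dotted line marks 1.2-fold, and all points lie below 0, from -0.54 without anterior replicate 1 to -0.096 without anterior replicate 2.

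Among the alpha subunits, Gabra3 (alpha3, expressed early in many brain regions) had intensities of 301.0 and 266.2 in the anterior lobe and 244.0 and 254.7 in the posterior lobe on its single probe. Both anterior arrays were the brighter ones. The log2 difference was -0.17 (SE 0.114, interval -0.45 to 0.11, adjusted p = 0.641 in limma). Gabra6 (alpha6, the granule neuron subunit) was dim, at 137.3 and 132.5 in the anterior lobe and 111.0 and 150.4 in the posterior lobe. Its lobes overlapped, and it was detected only on the replicate 2 array of each lobe. The log2 difference of -0.10 (SE 0.161, interval -0.50 to 0.29, adjusted p = 0.863 in limma) turned to 0.11 without posterior replicate 1, so no direction can be given. Near background, smaller changes in Gabra6 were not detectable.

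Of the beta subunits, Gabrb2 (beta2, the usual partner in the most widespread receptors of the adult brain) had intensities of 388.8 and 304.1 in the anterior lobe and 376.5 and 446.9 in the posterior lobe. The deposited values overlapped, while after normalization both posterior arrays, at 8.58 and 8.79 on the log2 scale, lay above both anterior ones, at 8.47 and 8.37. The difference was 0.27 (SE 0.132, interval -0.055 to 0.59, adjusted p = 0.556 in limma). It stayed above 0, between 0.16 and 0.38, under each normalization, without normalization and without each array in turn. Both other Gabrb2 probes were not detected on any array. Gabrb1 (beta1, found in neurons and in glia) had 1 probe at 1479.8 and 1004.0 in the anterior lobe and 1159.0 and 1107.2 in the posterior lobe. Its other probe was at 821.6 and 788.9 in the anterior lobe and 779.9 and 731.8 in the posterior lobe. The lobes overlapped on both after normalization, with log2 differences of -0.086 (ILMN_2742197) and -0.060 (ILMN_2826167) and adjusted p of 0.873 and 0.894 in limma. Leaving out 1 array turned the sign of each, so no direction can be given for Gabrb1 either.

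Gabrg1, the gamma subunit of the set and best known from glia and a few groups of neurons, had intensities of 213.9 and 167.2 in the anterior lobe and 212.9 and 195.9 in the posterior lobe on the 1 of its 3 probes that was detected. The lobes overlapped, and the log2 difference was 0.10 (SE 0.115, interval -0.18 to 0.38, adjusted p = 0.796 in limma). For 5 of the 8 tested probes, those of Gabra3, Gabra6, Gabrb1 and Gabrg1, the 95% interval lay within 1.5-fold in both directions. It did not for Gabrb2 or for either probe of Gabrd. The error of the bead measurement was small beside these intervals, with a standard error of 2.59% to 7.60% of the signal from 26 to 54 beads.

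**Figure D2:**
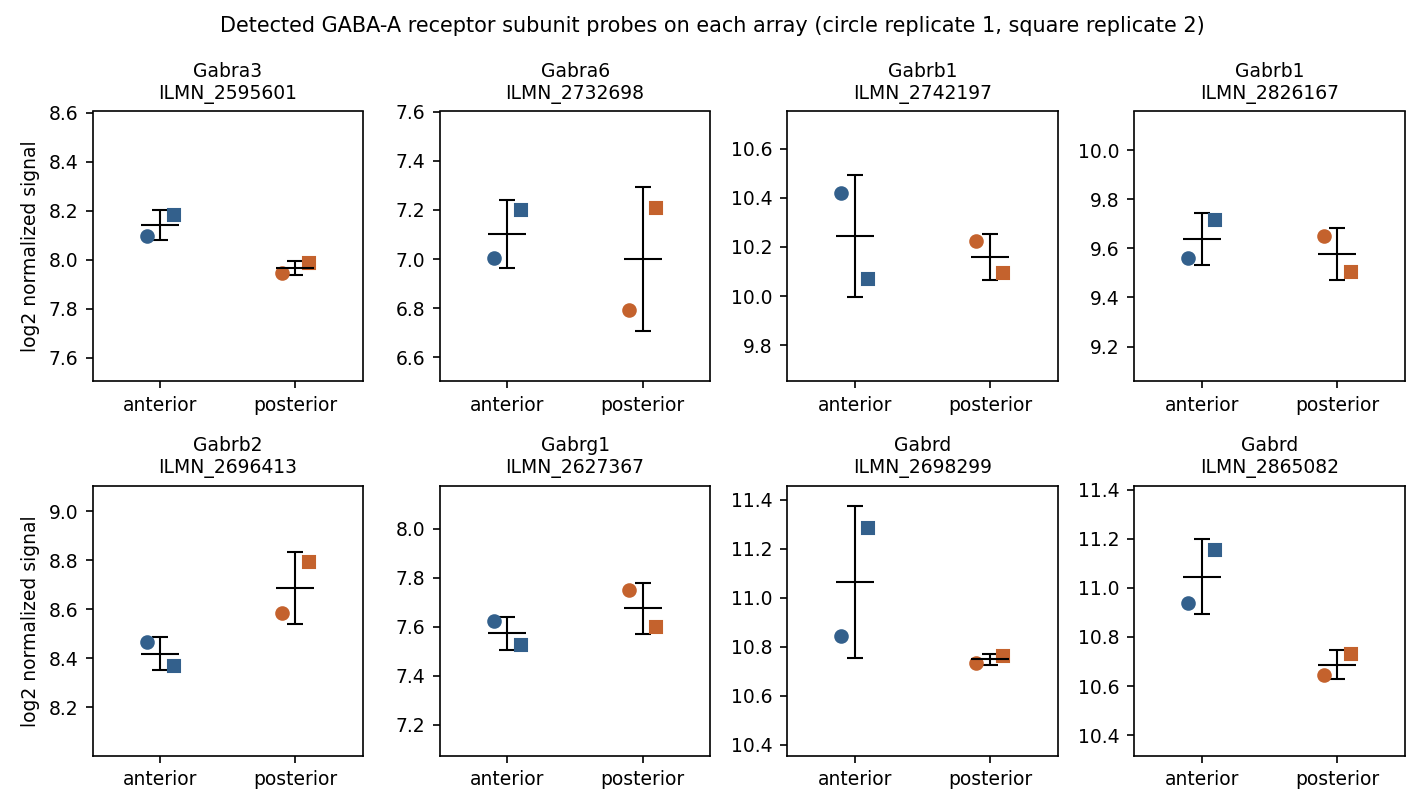
Log2 normalized signal of the 8 tested subunit probes on each array (circle replicate 1, square replicate 2), with the mean and SD over the 2 arrays of each lobe as bars. Each panel spans the same range of the log2 scale. Lobes do not overlap for Gabra3, Gabrb2 and both probes of Gabrd, and overlap on the other 4 probes.

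The other subunit genes of the receptor family showed no probe past the criterion. They had 24 probes of 10 genes, of which 10 probes of 4 genes were tested, and 0 of 10 passed the 1.2-fold criterion, an adjusted p of 0.05 or an unadjusted p of 0.05 in limma. Gabrg3 (gamma3) was at -0.26 and Gabra4 (alpha4, another partner of delta in extrasynaptic receptors), detected on 1 anterior and both posterior arrays, at 0.21, with adjusted p of 0.615 and 0.597. The median over the 4 genes was -0.052. Probes of Gabra5, Gabrp, Gabrq, Gabrr1 and Gabrr2 were not detected on any array. An undetected probe gives no level for its gene, since those of Calb1 and Car8, which mark Purkinje cells, and of Gad2, the smaller GABA-making enzyme of inhibitory neurons, were undetected as well.

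**Figure D3:**
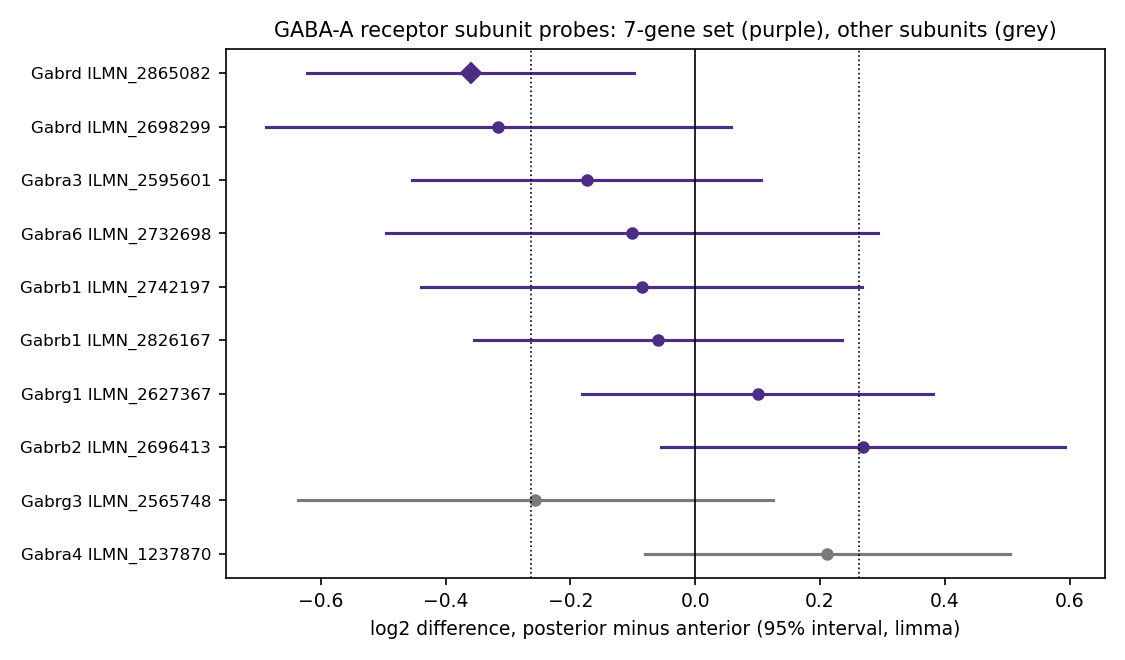
Log2 difference, posterior minus anterior, with the 95% interval from limma for each tested probe of the 7-gene set (purple) and for Gabra4 and Gabrg3 among the other GABA-A receptor subunits (grey). Dotted lines mark 1.2-fold, the diamond marks the only probe past the criterion, Gabrd ILMN_2865082 at -0.36, and its interval is the only 1 that leaves out 0.

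Most GABA-A receptor genes lie in clusters. With no direction to give for Gabra6 and Gabrb1, these data do not show whether neighbours in a cluster move alike. In the RefSeq annotation of the mouse assembly GRCm38.p6, Gabra6 and Gabrb2 lie side by side on chromosome 11, with Gabrb2 at 0.27 and Gabra6 at -0.10. Gabrg1, Gabra2, Gabra4 and Gabrb1 lie together on chromosome 5, with Cox7b2 between Gabra2 and Gabra4, and were at 0.10 (Gabrg1), 0.21 (Gabra4) and -0.086 and -0.060 (Gabrb1). Gabra3 lies on chromosome X next to Gabrq. Gabrd has no subunit gene beside it on chromosome 4, where its neighbours are Prkcz and Cfap74. None of these differences was past an adjusted p of 0.05 in limma.

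The lists of genes that hold the receptor in the membrane or handle GABA differed in their share of calls. Of 8 tested genes for the synthesis, transport and breakdown of GABA, 2 were higher and 1 lower in the posterior lobe past the criterion (backgrounds 3.3% and 5%). The median difference of the list was -0.044. Slc6a12 (BGT1, which carries betaine and GABA) had intensities of 302.9 and 295.1 in the anterior lobe and 471.4 and 813.7 in the posterior lobe. It was 2.09-fold higher in the posterior lobe, a log2 difference of 1.06 (SE 0.252, adjusted p = 0.284 in limma), and remained past the criterion without each array in turn, with 0.69 without posterior replicate 2 and 1.44 without posterior replicate 1. Slc6a13 (GAT2, a GABA transporter of the meninges) had 1236.5 and 1217.3 in the anterior lobe and 1506.2 and 2117.0 in the posterior lobe. Its difference was 0.56 (SE 0.158, adjusted p = 0.355 in limma), and 0.35 without posterior replicate 2, where it missed the criterion.

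Slc6a11 (GAT3, the glial GABA transporter) was at 581.3 and 240.4 in the anterior lobe and 820.5 and 556.7 in the posterior lobe, a difference of 0.87 that missed the criterion (unadjusted p = 0.0518 and adjusted p = 0.501 in limma). The enzyme gene Gad1 and the vesicular transporter gene Slc32a1 had no probe past the criterion, with differences of -0.092 to -0.0070 on the 3 tested Gad1 probes and -0.028 for Slc32a1. With the methods' t-test, neither Slc6a12 nor Slc6a13 passed the criterion.

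Of 17 tested genes for clustering and trafficking of the receptor, 1 passed the criterion, a share no larger than the 8.29% of all tested probes. Ubqln1, which slows the breakdown of receptor subunits, was at -0.28 on ILMN_2482555 (adjusted p = 0.483 in limma). It was at -0.23 on ILMN_2479786 and at 0.053 on its brightest probe ILMN_2508410. ILMN_2482555 passed the criterion with the methods' t-test (unadjusted p = 0.0253, adjusted p = 0.579), as did 3.41% of all tested probes. It missed the criterion without normalization (-0.31) and with detection on all 4 arrays (unadjusted p = 0.0501 in limma). Without single arrays its difference ranged from -0.32 to -0.24. The scaffold gene Gphn, encoding gephyrin, had 3 tested probes between -0.025 and 0.095, and the median over the 17 genes was -0.010. None of 4 tested chloride transporter genes and their regulators passed (median -0.080), the brightest being Slc12a2 (NKCC1, which loads chloride into young neurons) at -0.079. Neither of 2 tested genes of the GABA-B receptor passed (median 0.056). The brightest was Kctd12, at -0.12 on ILMN_2736783 and at 0.14 on its dimmer probe ILMN_1237224. The counts at an unadjusted p under 0.05 were also 0 in both lists.

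**Figure D4:**
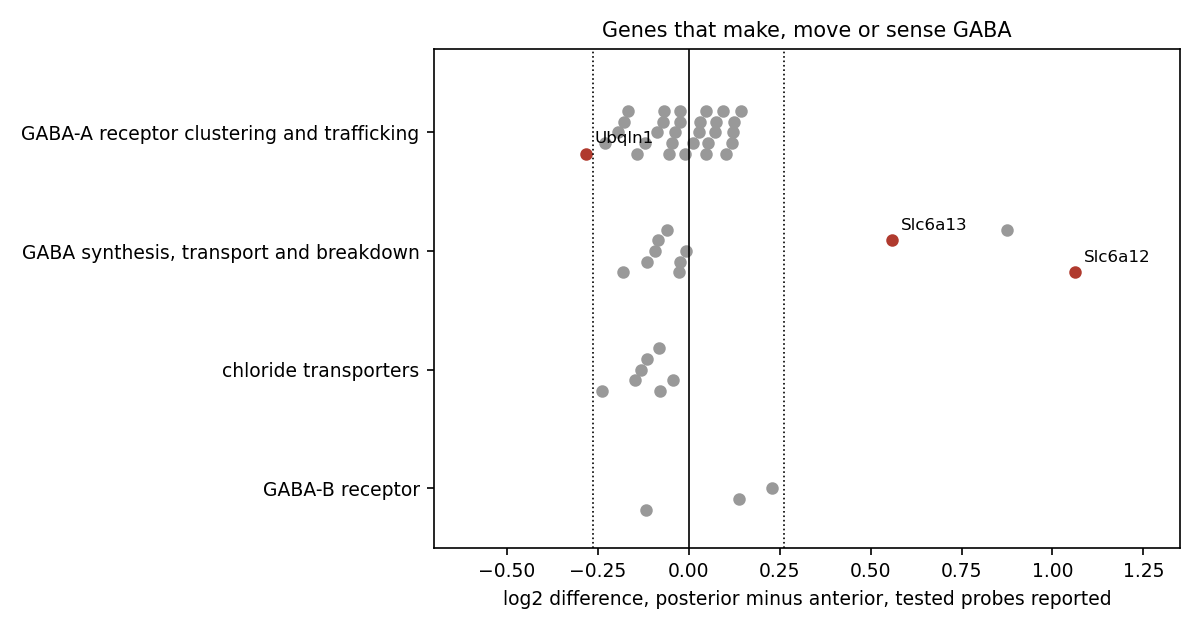
Log2 difference, posterior minus anterior, of the tested probes reported here from 4 lists of genes around the receptor. Dotted lines mark 1.2-fold and red points passed the criterion, which were Slc6a12 (1.06), Slc6a13 (0.56) and Ubqln1 (-0.28).

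Markers of several cell types also differed between the lobes. The background for each marker list was the share of all tested probes past the criterion, 3.3% higher and 5% lower in the posterior lobe. Of 12 tested granule neuron genes, the cells best known for Gabrd and Gabra6, 3 were higher and 2 lower in the posterior lobe past the criterion with a median of -0.0018, and their summed normalized signal was 84553.8 and 82120.4 in the anterior lobe and 86747.6 and 82622.1 in the posterior lobe. The extremes of that list were Zic2 and Etv1, a transcription factor of maturing granule neurons. Zic2 was at 0.72 on ILMN_2470518 and at 0.14 on ILMN_1252072, which missed the criterion. Etv1 was at -0.64, -0.50 and -0.46 on its 3 tested probes. The granule neuron markers Fat2 and Cbln3 were not detected on any array. Of 9 tested Purkinje cell genes 1 was higher past the criterion, and the median was -0.067. By their brightest probes 6 were lower, down to -0.25, and 3 higher, and 2 had an unadjusted p under 0.05 in limma. Of 10 tested Bergmann glia and astrocyte genes none passed, with a median of -0.0023, and 1 had an unadjusted p under 0.05.

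No gene passed the criterion among granule progenitor markers (0 of 6 tested genes, median 0.058) or inhibitory interneuron markers (0 of 4, median -0.014), with no probe at an unadjusted p under 0.05 in limma in either. Lists of unipolar brush cells (1 of 5 tested genes), endothelium (1 of 6) and brainstem neurons (1 of 2) each held a gene higher in the posterior lobe past the criterion. Of the 8 genes listed for brainstem neurons, Hoxb5, Hoxb8, Hoxa5, Hoxc4, Tph2 and Chat were not detected on any array. The unipolar brush cell gene was Calb2, which is counted in the granule neuron list as well.

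Most oligodendrocyte and meningeal markers differed, each list in its own direction. Of 10 tested oligodendrocyte genes 9 were lower in the posterior lobe past the criterion (median -0.68, background 5%). Their summed signal was 110936 and 108368 in the anterior lobe and 78028 and 72861 in the posterior lobe. Olig2 was not detected on any array. Of 7 tested meningeal genes 5 were higher in the posterior lobe past the criterion (median 0.52, background 3.3%). Their summed signals were 16137 and 18332 in the anterior lobe and 25958 and 31392 in the posterior lobe. Each of the 7 had at least 1 detected probe. Slc6a13 is itself a member of that list. All 3 tested choroid plexus genes were lower in the posterior lobe by their brightest probes, and 1 passed the criterion (median -0.89, background 5%). They summed to 1131 and 11324 in the anterior lobe and to 748 and 4209 in the posterior lobe, higher in the replicate 2 sample of each. The part of these cell types in the differences of the receptor subunits and GABA transporters was not tested.

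The probes with the pattern most like that of the extreme subunits were found by the root mean square difference of the log2 signals over the 4 arrays, each probe centred on its own mean. Among the closest to Gabrb2 of 21725 tested probes were Clcc1 (0.0026) and Uchl3 (0.017), whose own lobe differences were 0.27 and 0.24. Closest to Gabrd ILMN_2865082 were Tssc1 (0.0075), AI851790 (0.011) and BC059842 (0.011), with lobe differences of -0.37, -0.35 and -0.35. With 4 arrays, likeness of this kind is a description of these samples only.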

How the data were processed

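Labelled RNA of each sample was read on an Illumina MouseWG-6 v2.0 bead array with GenomeStudio. The authors deposited, per the file headers, the mean bead intensity of each probe without normalization, the SD of the bead intensity, the number of beads and a detection score, a fraction that is 1 minus the detection p-value. A lower threshold of 1 and log base 2, stated in the methods, were not applied in the deposited values and were applied here, after quantile normalization between arrays. Another 16 columns were not used. Columns were assigned through the sample numbers in the labels, and samples were grouped by lobe.

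Differences were fitted with limma 3.58.1 in R 4.3.3 (lmFit, eBayes with an intensity trend) on every probe detected (p under 0.05) on 2 or more arrays, with Benjamini-Hochberg adjustment over them. The array methods name no test for their criterion, and a general statement in the methods names an equal-variance t-test. That test, an ordinary t statistic per probe, was run as an alternative (the methods' t-test), because limma shares the spread across probes. Each probe was reported on its own, and list medians used the brightest tested probe of each gene. The fit was tested on simulated data. The alternatives were neqc background correction (offset 16, control signals inferred from the detection p-values), unnormalized signals, cyclic loess, arrays shifted to equal 75th percentiles, no filter, detection on all 4 arrays or at p under 0.01, no intensity trend, the replicate number as a block, that t-test, a 1.5-fold threshold and leaving out each array.

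The subunits, gene lists and cell type markers were chosen with earlier results of these data known. Named were all subunit probes, the genes of the GABA lists past the criterion, for a list without one the gene with the brightest probe, the extremes of marker lists and the 3 probes most like each extreme subunit. Slc6a11, Gad1, Slc32a1, Gphn, Ttr and undetected markers were named after their values were seen. Probe sequences were not analysed here, and the values of some genes named by this rule are not reported here, although the counts and medians of their lists include them.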

Additional observations from a re-analysis of the deposited data

How the results depend on the processing

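No subunit probe of the set passed an adjusted p of 0.05 in limma in any setting that kept all 4 arrays. In those settings 0.0598% to 2.71% of all tested probes passed it. The count past the 1.2-fold criterion, 1 with all arrays, was 0 at 1.5-fold and 0 by the methods' t-test. There 1.79% and 3.41% of all tested probes passed. For the other subunits the count of 0 became 1 without normalization and 1 without the filter (Gabra5, undetected, at 0.29). There 6.06% and 5.51% of all tested probes passed. All other settings that kept all 4 arrays, except the replicate block, kept these counts. The sign turned for Gabra6, which ranged from -0.20 to 0.11 without single arrays, and for Gabrb1, which ranged from -0.26 to 0.091 on ILMN_2742197 and from -0.14 to 0.016 on ILMN_2826167.

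The labels give both lobes the same replicate numbers without saying that a number marks 1 animal, and the 2 pairs are too few to show it. Over the tested probes the differences between replicates 2 and 1 of the lobes correlated at 0.46, which is across probes. A fit blocked on the replicate number had 2 probes of the set past the criterion, both of Gabrd (adjusted p 0.212 and 0.0993 in limma), and 1 of the other subunits, while 13% of all tested probes passed. With 2 arrays a lobe and signals near background for Gabra6, Gabra4 and the undetected probes, smaller differences were not detectable.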

Other observations

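Some probes carry an older name that RefSeq lists as a synonym of a subunit gene, and they were looked at after the other values were known. B230208N19RIK, a synonym of Gabrb1, was detected on all 4 arrays, with intensities of 453.4 and 364.2 in the anterior lobe and 384.8 and 365.2 in the posterior lobe and a log2 difference of -0.10 (adjusted p = 0.808 in limma). C030021G16RIK, a synonym of Gabrb2, was not detected on any array. B230362M20RIK, a synonym of Gabrg3, was detected on 1 anterior array only.

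Beside the receptor subunits, the calretinin gene Calb2, which marks unipolar brush cells and granule neurons, had intensities of 1898.9 and 2239.8 in the anterior lobe and 2813.5 and 2731.4 in the posterior lobe on probe ILMN_2597412, a log2 difference of 0.44 (adjusted p = 0.440 in limma). Its brighter probe ILMN_2827729 had 9893.7 and 8736.2 in the anterior lobe and 11846.3 and 12262.6 in the posterior lobe, a difference of 0.37 (unadjusted p = 0.000757 and adjusted p = 0.127 in limma). Slc17a6, a vesicular glutamate transporter gene counted in the brainstem neuron list, had a largest difference of 0.30 among its probes (adjusted p = 0.403 in limma). Its signal does not tell which cells of the dissected lobes it came from.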
